A study of Mus musculus with 4 samples.

Results

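The genes described here encode 9 cell-surface ligands that natural killer (NK) cells read on a tumour cell, out of 24411 genes listed for each library. They were chosen by symbol: *Pvr*, *Nectin2* (listed under its older symbol *Pvrl2*), *Cadm1*, *Icam1*, *Raet1d*, *Raet1e*, *H60b*, *Ulbp1* and *Clec2d*. All 9 were listed in all 4 tables. Of these, *Raet1d* and *Raet1e* were at 0 in all 4 libraries, and *Cadm1* was above 0 in 1 library.

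The libraries are RNA-seq profiles of 4T1, an established mouse mammary carcinoma line grown in medium with serum. The control group holds 2 libraries. Per the labels' protocols, RNA was taken from unmodified 4T1 cells and from a line with stable Cas9 delivered by a lentivirus under blasticidin selection, and the titles do not say which control is which. The CD95ko group holds 2 libraries, from clones FAS54 and FAS69. Each clone was grown from a single Cas9-expressing cell after transfection with guide RNAs against exon 9 of the gene for CD95, the death receptor encoded by *Fas*, so that the edit, single-cell cloning and clone-to-clone variation cannot be told apart. The target sequences of both guides, shown because they define the CD95ko group, are written 5′ to 3′ with the PAM (the short motif Cas9 needs beside its target) in capitals.
Guide A: gccgggttcacatctgcgctAGG
Guide B: cttgaggaatctgatgaccgTGG

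NK cells weigh activating against inhibitory signals from a target cell. DNAM-1 (CD226) is an activating receptor that binds CD155, encoded by *Pvr*, and CD112, encoded by *Nectin2*. The inhibitory receptor TIGIT competes for both ligands, and the inhibitory receptor CD96 competes for CD155. NKG2D is an activating receptor for stress-induced MHC class I-like proteins, which in mice are the RAE-1, H60 and MULT-1 families, and LFA-1 is the integrin through which NK cells adhere to ICAM-1. *Cadm1* and *Clec2d* belong to other receptors: CADM1 is bound by CRTAM, and the *Clec2d* product Clr-b is bound by the inhibitory receptor NKR-P1B. 4T1 comes from a BALB/c mouse, whereas mm10, the build named in the submitters' processing notes, is a C57BL/6J assembly, and the RAE-1 and H60 genes are known to differ between these strains.

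The transcript of the targeted gene was examined first. *Fas* was at 49.4 and 39.2 TPM (a transcript abundance scaled for gene length and library size) in controls 1 and 2, at 15.8 TPM in the library labelled CD95ko 1 and at 49.5 TPM in the library labelled CD95ko 2. The second of these lay above both controls, and a gene-level value does not separate exon 9 from the rest of the transcript. Directions are therefore given for the libraries as labelled. The 4 cultures carried epithelial transcripts, with 10 of 11 epithelial markers above 0. Of 14 NK cell markers, 12 were at 0 in all 4 libraries, *Ncr1*, *Klrk1* and *Prf1* among them. The exceptions were *Tigit* and *Eomes*. *Tigit* was at 61.5 and 79.8 TPM in the controls and at 118 and 104 TPM in the libraries labelled CD95ko. *Eomes* was at 3.57 and 1.07 TPM against 19.0 and 0.9 TPM. The NK cell markers summed to 65.1 and 80.8 TPM against 137.4 and 105.4 TPM. Of 12 leukocyte markers, 9 were at 0 in all 4 libraries, including *Ptprc*. The summed level of the epithelial markers was 6778 and 6308 TPM in the controls and 10183 and 14367 TPM in the libraries labelled CD95ko. That of the leukocyte markers was 63.8 and 48.5 TPM against 52.3 and 219.8 TPM. Of the 3 above 0, *Cd68* (44.6 and 42.05 TPM against 17.8 and 146 TPM) and *Itgb2* (18.0 and 6.44 TPM against 12.2 and 68.5 TPM) overlapped between the groups. *Csf1r* did not, at 1.22 and 0 TPM against 22.2 and 5.07 TPM (limma unadjusted p = 0.00489, adjusted p = 0.164). The fibroblast markers, with 4 of 8 at 0 in all 4 libraries, summed to 9.3 and 1.4 TPM against 5.5 and 81.9 TPM, of which *Postn* gave 79.1 TPM in the library labelled CD95ko 2. The part of these markers in the differences below was not tested.

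The DNAM-1 ligands were the most abundant of the 9 transcripts, and both were listed lower in the libraries labelled CD95ko. *Pvr*, on chromosome 7 (chr7:19903578-19921160, minus strand, GENCODE M21 on GRCm38), was at 63.1 and 80.6 TPM in controls 1 and 2, and at 18.7 and 19.5 TPM in the libraries labelled CD95ko 1 and 2. The clones lay close together and well under both controls: the CD95ko mean of 19.1 ± 0.594 TPM was 26.6% of the control mean of 71.9 ± 12.4 TPM (SD, n = 2 in each group). On the log2(TPM + 1) scale the difference was -1.85 ± 0.38 (SE; 95% interval -2.71 to -0.99), with an unadjusted limma p of 0.000927 and an adjusted p of 0.12 over all genes. In bulk RNA, fewer cells with a transcript and less of it per cell cannot be told apart. *Pvr* missed the adjusted threshold of 0.05, which 6 of 11167 tested genes (0.0537%) passed. With 1 library left out, it passed without a clone and not without a control. The limma adjusted p was 0.0187 without the library labelled CD95ko 1, 0.0384 without the library labelled CD95ko 2, 0.556 without control 1 and 0.875 without control 2. In those fits the lone library of a group is assumed to vary like the other group, and all genes past the threshold numbered, in the same order, 1034, 194, 0 and 0, with 2713, 1363, 930 and 469 at an unadjusted limma p under 0.05.

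*Pvrl2* (*Nectin2*; chr7:19716644-19750483, minus strand) was at 135 and 186 TPM in the controls, at 31.4 TPM in the library labelled CD95ko 1 and at 115 TPM in the library labelled CD95ko 2. The groups did not overlap, but the clones differed: the first lay far under both controls and the second just under control 1. The group means were 160.6 ± 35.6 and 73.1 ± 59.0 TPM (SD, n = 2 in each group). The log2 difference was -1.38 ± 0.55 (SE), with an unadjusted limma p of 0.0332 and an adjusted p of 0.284. It was -0.46 (limma adjusted p = 0.471) without the library labelled CD95ko 1 and -2.30 (limma adjusted p = 0.00217) without the library labelled CD95ko 2, and the adjusted p was 0.599 without control 1 and 0.875 without control 2. The difference between the clones, 1.84 on the log2 scale, was thus larger than the difference between the groups, whereas for *Pvr* it was 0.06.

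**Figure D1:**
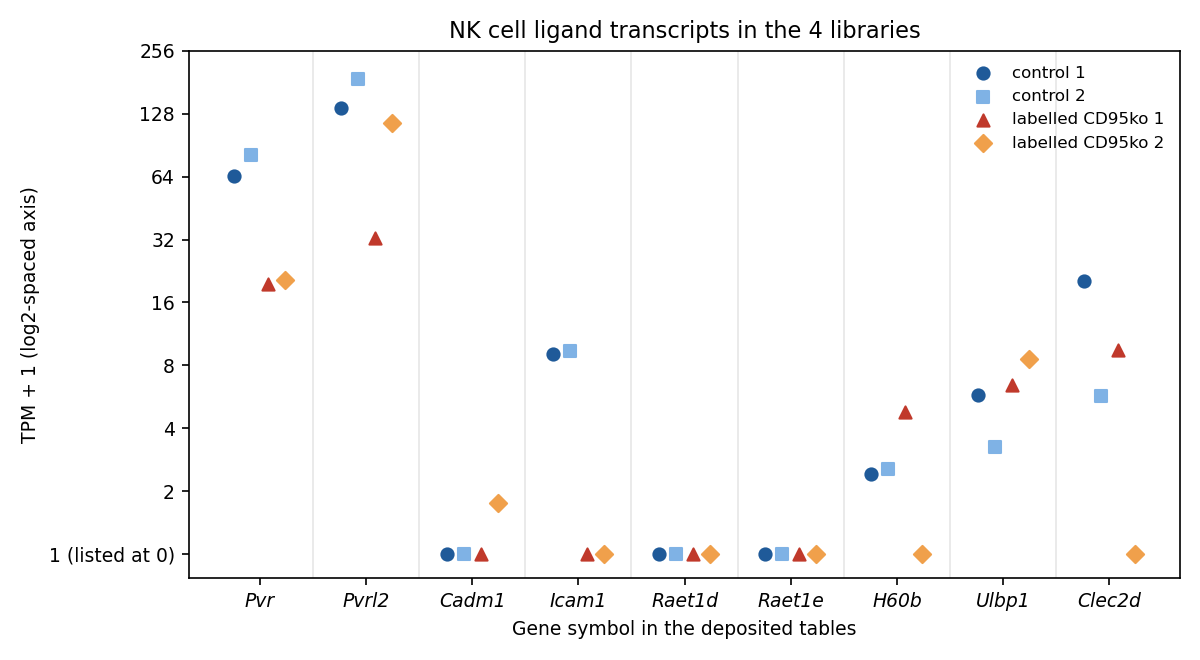
TPM + 1 on a log2-spaced axis for the 9 ligand genes, with 1 point per library (blue for controls, red and orange for the libraries labelled CD95ko) and values of 0 at the bottom. *Pvr* was at 18.7 and 19.5 TPM in both clones, *Icam1* was at 0 in both, and *Raet1d* and *Raet1e* were at 0 in all 4 libraries.

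*Icam1*, the LFA-1 ligand (chr9:21015985-21028817, plus strand), had values of 8.09 and 8.35 TPM in the controls, and its value was 0 in each clone. The controls lay close together, and neither clone had any value above 0. Its unadjusted limma p was 0.000712 and its adjusted p 0.108, so it also missed the threshold. No fold is given, because TPM carries no read number from which a lower bound could be set. *Icam1* passed the filter on low values (a minimum of 1 TPM in 2 or more libraries) only through the controls. With 1 library left out, its limma adjusted p was 0.0111 without the library labelled CD95ko 1 and 0.028 without the library labelled CD95ko 2, but 0.556 without control 1 and 0.875 without control 2.

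Among the NKG2D ligands, *Ulbp1*, which encodes MULT-1 (chr10:7440362-7473638, minus strand), was at 4.77 and 2.24 TPM in the controls and at 5.41 and 7.54 TPM in the libraries labelled CD95ko. Both clones lay above both controls, but the gap between control 1 and the library labelled CD95ko 1 was smaller than the gap between the controls. The log2 difference was 0.77 ± 0.61 (SE; 95% interval -0.61 to 2.16; limma unadjusted p = 0.236, adjusted p = 0.581). It was 1.19 without control 1 and 0.36 without control 2 (limma adjusted p = 0.558 and 0.923). *H60b* (chr10:22158586-22288849, plus strand) was at 1.42 and 1.56 TPM in the controls, at 3.76 TPM in the library labelled CD95ko 1 and at 0 in the library labelled CD95ko 2. The clones thus stood on either side of the controls, and the log2 difference of -0.19 ± 0.85 (SE; 95% interval -2.12 to 1.74; limma adjusted p = 0.941) turned to 0.94 without the library labelled CD95ko 2 and was -1.32 without the library labelled CD95ko 1.

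The RAE-1 genes gave almost no signal. *Raet1d* and *Raet1e*, both on chromosome 10, were at 0 in every library, as were *Raet1a* and *Raet1b*, while *Raet1c* was at 1.05 TPM in control 1 and at 0 in the others. Reads of this family are hard to assign: 71.0% of the 25-nucleotide stretches in the GENCODE M21 transcripts of *Raet1d* also occur in *Raet1e*, and 59.7% of those of *Raet1e* occur in another gene. The corresponding share was 13.4% for *H60b*, 4.7% for *Ulbp1*, 5.4% for *Icam1*, 0.5% for *Pvr* and 0.1% for *Nectin2*. The split of reads among the RAE-1 genes is uncertain for this reason, while *Raet1d* and *Raet1e* were both at 0. Of the 9 genes they are the pair with most shared sequence. In GENCODE M21 the span of *Raet1d* (chr10:22360552-22374139) lies within that of *Raet1e* (chr10:22158569-22374139). Whether the shared stretches are the same exons listed under both symbols was not checked.

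The ligands of the remaining receptors varied without separating the groups. *Clec2d* (chr6:129180615-129186534, plus strand) was at 19.2 and 4.69 TPM in the controls, at 8.49 TPM in the library labelled CD95ko 1 and at 0 in the library labelled CD95ko 2. Control 2 minus control 1 was -1.83 and the second clone minus the first -3.25 on the log2 scale, each larger in size than the group difference of -1.80 ± 1.05 (SE; 95% interval -4.19 to 0.59; limma adjusted p = 0.456). That difference was -3.42 (limma adjusted p = 0.0153) without the library labelled CD95ko 1 and -0.18 (adjusted p = 0.957) without the library labelled CD95ko 2. It was -0.89 (limma adjusted p = 0.846) without control 1 and -2.72 (adjusted p = 0.875) without control 2. Of the *Clec2d* stretches, 18.4% occur in other genes, most often in its paralog *Clec2i*. *Cadm1* was at 0.76 TPM in the library labelled CD95ko 2 and at 0 in the other 3, under the filter.

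By level, *Pvrl2* stood first and *Pvr* second in every library. In the controls *Clec2d* and *Icam1* came next with overlapping values, followed by *Ulbp1* and then *H60b*, whose values did not overlap with each other. In the libraries labelled CD95ko *Ulbp1* held the third place on average, its values overlapping those of *Clec2d*. *Icam1*, at 8.22 ± 0.184 TPM (SD, n = 2) in the controls, stood above *Ulbp1* in both controls and under it in both clones.

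Taking the 9 genes as a list, 6 passed the filter and were tested, and 0 passed an adjusted p of 0.05 in limma (0.0537% of all tested genes did). At an unadjusted p under 0.05 there were 3, *Pvr*, *Pvrl2* and *Icam1*, all lower in the libraries labelled CD95ko, against 14.9% of all tested genes in either direction and 5.68% in the lower direction. That count ran from 2 to 4 over the settings. The unadjusted limma p of *Pvrl2* was 0.0501 with a pseudocount of 0.1, 0.0566 with robust eBayes, 0.0658 with quantile normalization and 0.0797 with eBayes without trend, beside adjusted values from 0.231 to 0.413 over the settings with 4 libraries. *Icam1* was not tested at a mean of at least 5 TPM. With the replicate block *Clec2d* was the fourth, at an unadjusted limma p of 0.0217 and an adjusted p of 0.262. The same 3 had both CD95ko values under both control values, which held for 18.3% of all tested genes, and *Ulbp1* had both above, which held for 29.2% (47.6% in either direction). The median log2 difference over the 6 was -1.59, and -1.38 without *Icam1*, beside 0.13 over all tested genes. Because *Icam1* entered through the controls alone, these counts describe the genes and support nothing further. The share of higher among all non-overlapping genes was 61.5%, and it was 50.7% under quantile normalization and 45.2% with each library centred on its median, which moved the median difference of all genes from 0.13 to 0.002 and -0.07. Relative to the median of all genes, *Pvr* differed by -1.98, *Pvrl2* by -1.51 and *Ulbp1* by 0.65.

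Other NK cell ligands, taken from a fixed list, lay on both sides of 0. Of 44 genes on that list, 41 were listed, 21 were at 0 in all 4 libraries (*Cd48*, *Cd70*, *Cd80*, *Cd86* and *Icam2* among them) and 18 were tested. *H60a*, *Clec2j* and *Qa2* were not listed. The level of *H60a*, of the H60 family of NKG2D ligands, is therefore not known here. None passed the adjusted limma threshold. At an unadjusted p under 0.05 there were 3, 1 lower and 2 higher in the libraries labelled CD95ko, a share near the 14.9% of all tested genes, and the median difference was 0.13. *B2m*, the light chain of MHC class I, was at 787 and 507 TPM in the controls and at 342 and 324 TPM in the libraries labelled CD95ko (log2 difference -0.92 ± 0.31 SE, limma adjusted p = 0.236). *Cadm4*, a paralog of *Cadm1*, was at 11.9 and 9.95 TPM in the controls and at 22.5 and 26.7 TPM in the clones (1.10 ± 0.45 SE, adjusted p = 0.302). *Bag6*, which encodes a ligand of the human receptor NKp30, was at 114 and 65.1 TPM against 154 and 198 TPM (1.01 ± 0.37 SE, adjusted p = 0.259).

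The classical MHC class I genes overlapped between the groups. *H2-D1* was at 801 and 486 TPM in the controls and at 436 and 891 TPM in the libraries labelled CD95ko, and *H2-K1* at 107 and 53.4 TPM against 39.3 and 122 TPM. In both, the library labelled CD95ko 1 was the lowest of the 4 and the library labelled CD95ko 2 the highest. These class I genes are close paralogs, so their values are uncertain where reads could be split between them. *F11r*, which encodes the LFA-1 ligand JAM-A, stayed within 119.8 to 148 TPM in all 4 libraries. *Cd47*, *Lgals9*, *H2-L*, *H2-T23* and *Clec2f* also overlapped. *Cdh1*, which encodes E-cadherin, the ligand of KLRG1, did not overlap: it was at 159 and 154 TPM in the controls and at 205 and 255 TPM in the clones (limma adjusted p = 0.428).

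**Figure D2:**
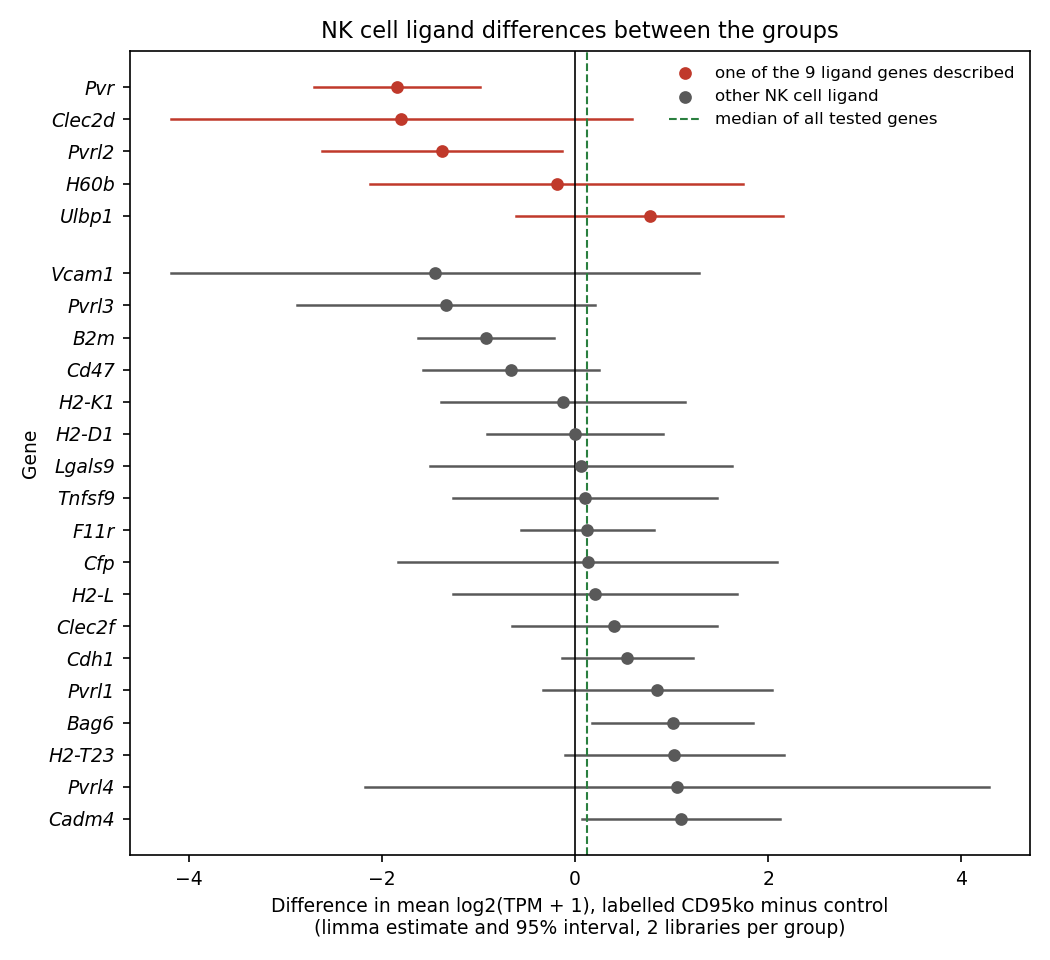
Difference in mean log2(TPM + 1), labelled CD95ko minus control, as limma estimate with 95% interval for 5 of the 6 tested ligand genes (red) and the 18 tested genes of the wider ligand list (grey), with the median of all tested genes (0.13) dashed. *Icam1* is left out because it was at 0 in both clones; *Pvr* lies at -1.85, lower than every tested gene of the wider list.

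Both DNAM-1 ligand genes lie on chromosome 7, 154.0 kb apart in RefSeq (GRCm38.p6), so their neighbours were examined, a choice made after the values were seen. Between them lie 4 tested genes. *Bcl3*, which encodes a nuclear IκB-like protein, was at 25.0 and 19.2 TPM in the controls and at 1.79 and 9.34 TPM in the libraries labelled CD95ko (log2 difference -2.09 ± 0.68 SE, limma adjusted p = 0.223), low in the library labelled CD95ko 1 like *Pvrl2*. The other 3, *Bcam*, *Cblc* and *Gm19345*, overlapped between the groups. Within 500 kb of *Pvr*, 6 of 18 other tested genes, *Pvrl2* among them, had both CD95ko values under both controls (18.3% of all tested genes did). Both values lay above for 2 (29.2% of all tested genes did). *Relb* was at 122 and 118 TPM against 29.5 and 21.6 TPM (-2.20 ± 0.36 SE, adjusted p = 0.0676), and *Tomm40*, next to *Pvrl2*, at 191 and 212 TPM against 91.5 and 68.8 TPM (-1.33 ± 0.32 SE, adjusted p = 0.145). Lower genes thus stood among others that overlapped. Around *Icam1*, 9 of 28 other tested genes within 500 kb lay under both controls (18.3% of all tested genes did) and 8 above, near the share of all tested genes (29.2%).

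**Figure D3:**
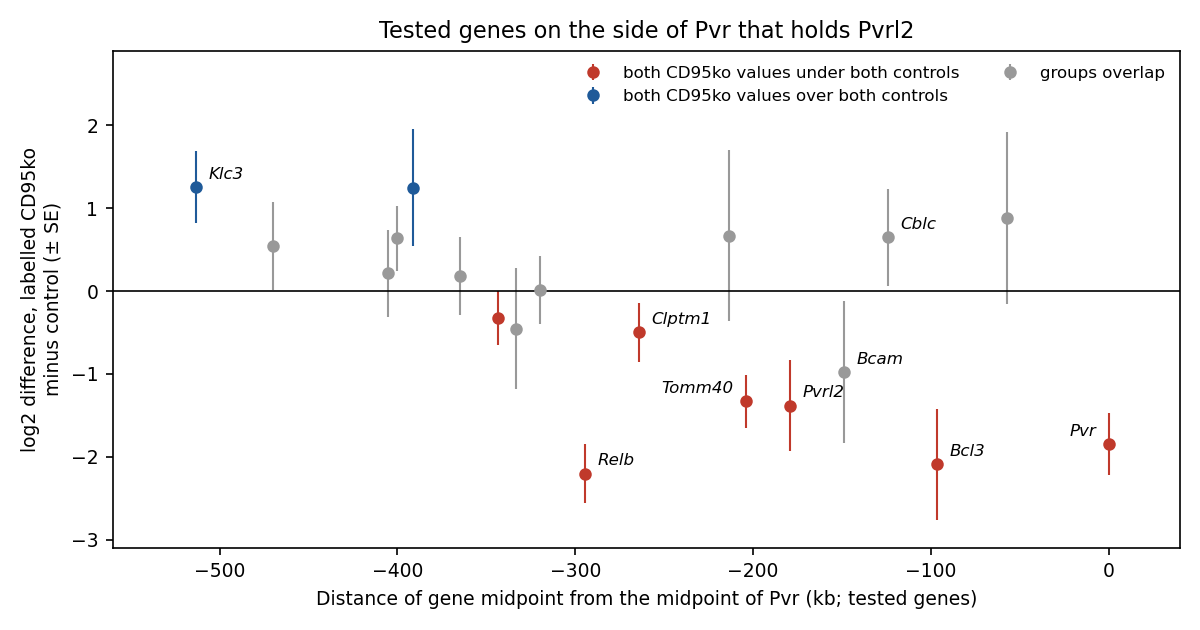
log2 difference (labelled CD95ko minus control, ± SE) of the tested genes within 500 kb of *Pvr* by distance of their midpoints in kb; no tested gene lies on the other side. *Relb* (-2.20), *Bcl3* (-2.09), *Pvr* (-1.85) and *Pvrl2* (-1.38) are the lowest, and *Cblc* between *Pvrl2* and *Pvr* overlaps between the groups.

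NF-κB is a family of transcription factors that is known to drive *Icam1*, so a list of NF-κB genes is given beside it. The list holds subunits and inhibitors, the IκB kinase complex genes *Ikbkb*, *Ikbkg* and *Chuk*, and the target gene *Birc3*. Any part of these genes in the *Icam1* values was not tested. Of 15 tested genes, 0 passed the adjusted limma threshold and 7 had an unadjusted p under 0.05, all lower in the libraries labelled CD95ko (5.68% of all tested genes were). The median difference was -1.17. Both clones lay under both controls for 9 genes (18.3% of all tested genes did) and above them for 1, *Ikbkb* (29.2% did), which encodes a kinase that acts on the inhibitors. *Chuk*, which encodes another kinase of the same complex, was among the 9, at 29.9 and 25.3 TPM against 20.2 and 6.57 TPM. *Nfkb2*, a subunit of the non-canonical arm and partner of *Relb*, was at 355 and 342 TPM in the controls and at 161 and 136 TPM in the clones (-1.23 ± 0.29 SE, adjusted p = 0.144). *Rela* was at 159 and 147 TPM against 85.9 and 52.9 TPM, and *Nfkb1* at 80.2 and 65.4 TPM against 59.9 and 65.0 TPM. The inhibitor genes *Nfkbia* (435 and 535 TPM against 112 and 251 TPM) and *Nfkbib* (102 and 98.4 TPM against 28.4 and 38.8 TPM) were also lower, whereas *Tnfaip3* overlapped. *Birc3*, an NF-κB target that encodes a ubiquitin ligase, was at 24.8 and 27.2 TPM against 2.26 and 4.73 TPM (-2.64 ± 0.54 SE, adjusted p = 0.114).

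**Figure D4:**
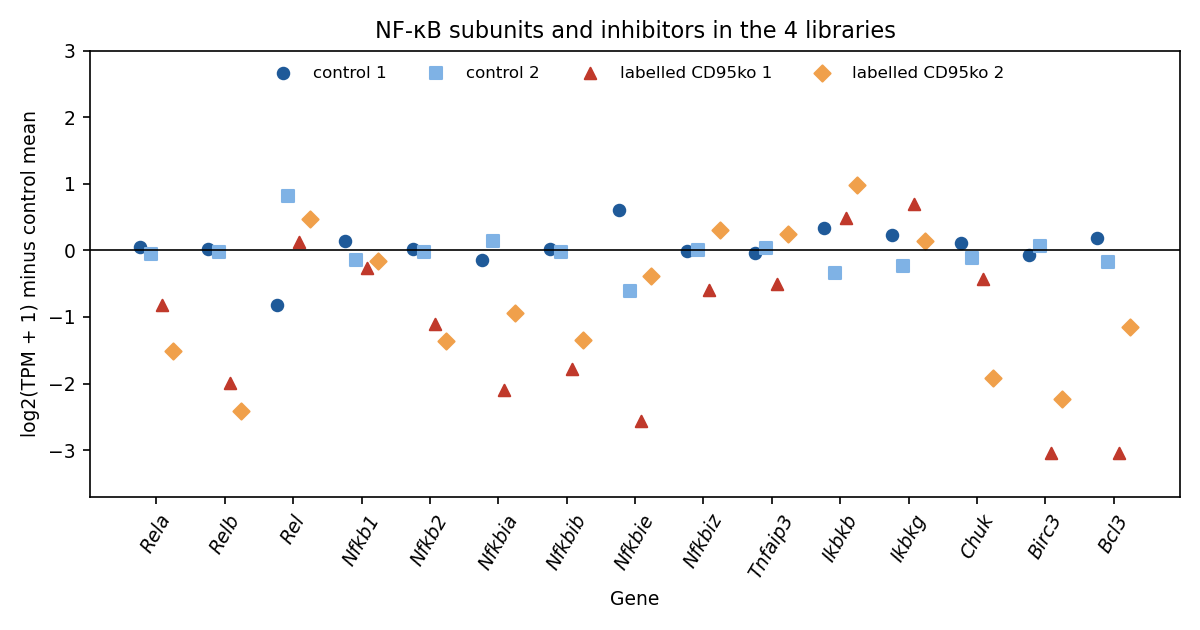
log2(TPM + 1) minus the control mean for the 15 genes of the NF-κB list (subunits, inhibitors, IκB kinase complex genes and the target *Birc3*), with 1 point per library. Both libraries labelled CD95ko lie under both controls for 9 genes, *Relb*, *Nfkb2*, *Nfkbib* and *Birc3* among them, and *Rel* and *Tnfaip3* overlap.

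The promoter windows of *Icam1* and *Nectin2*, shown because both transcripts were lower, run from 250 bases before to 50 bases after the start (RefSeq, GRCm38.p6; 6 of the 9 genes had an entry). The *Icam1* window is chr9:21015690-21015989 on the plus strand, with the match to GGAANTTCC in capitals. The *Nectin2* window is chr7:19749524-19749823 on the minus strand, with its E-box (CANNTG) in capitals.
Icam1: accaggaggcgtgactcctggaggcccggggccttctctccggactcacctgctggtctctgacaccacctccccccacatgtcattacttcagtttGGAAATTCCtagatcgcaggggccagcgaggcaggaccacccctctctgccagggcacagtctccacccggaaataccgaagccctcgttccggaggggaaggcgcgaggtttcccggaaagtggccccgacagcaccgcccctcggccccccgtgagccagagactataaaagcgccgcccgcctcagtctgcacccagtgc
Nectin2: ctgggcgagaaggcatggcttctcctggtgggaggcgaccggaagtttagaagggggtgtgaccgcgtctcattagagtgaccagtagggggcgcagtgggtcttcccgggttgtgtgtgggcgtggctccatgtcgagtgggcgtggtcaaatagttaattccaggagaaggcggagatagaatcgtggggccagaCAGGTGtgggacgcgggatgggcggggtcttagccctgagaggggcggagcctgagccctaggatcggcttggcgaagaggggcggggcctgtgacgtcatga

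Both strands were searched for the κB consensus, the AP-1 element (TGANTCA), the p53 half-site and the E-box (CANNTG). Of the 32817 windows in the table, 8.46% held the κB consensus, 7.81% the AP-1 element, 8.36% the p53 half-site and 72.3% an E-box. Neither printed window matched any of these except the E-box, which occurs at 2 places in that of *Icam1*. A shorter κB form, GGAANTTCC, was added after this was seen. Its first base is at position -153 from the *Icam1* start, and it overlaps no E-box and occurs in 0.926% of all windows but in no other window of the 6 genes. These matches describe letters only.

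The genes whose profile over the 4 libraries was most like that of each ligand with a mean of at least 5 TPM were found by the Euclidean distance between log2(TPM + 1) values centred on each gene's mean. Nearest to *Pvr* were *Vgll3* (distance 0.065), *Hbegf* (0.142), which encodes an EGF receptor ligand, and *Dusp8* (0.161), which encodes a MAP kinase phosphatase. *Vgll3* was low, at 5.0 and 7.06 TPM in the controls and at 0.95 and 0.99 TPM in the libraries labelled CD95ko. It passed the filter only through the controls. *Hbegf* was at 196 and 224 TPM in the controls and at 52.1 and 58.0 TPM in the libraries labelled CD95ko. Nearest to *Pvrl2* were *Nsun6* (0.298), *Jag2* (0.311), which encodes a Notch ligand, and *Jun* (0.313), an AP-1 subunit at 184 and 216 TPM in the controls and at 34.2 and 116 TPM in the clones. Nearest to *Clec2d* were *Socs1* (0.275), an inhibitor of cytokine signalling, *Rabl3* (0.479) and *Fkbp7* (0.489). Over 4 libraries such a likeness is a description only.

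Surface ligands can be lost from a cell by shedding, and genes of shedding and membrane trafficking were counted from a fixed list of 18. No surface protein was measured, and any part of shedding was not tested. Of 15 tested, 0 passed the adjusted limma threshold and 3 had an unadjusted p under 0.05, all higher in the libraries labelled CD95ko (9.25% of all tested genes were). The clones lay above both controls for 8 (29.2% of all tested genes did), the inhibitor gene *Timp2* among them, and under them for 0 (18.3% did). For 7 the groups overlapped, *Mmp9* among them, at 66.6 and 16.1 TPM in the controls against 39.8 and 802 TPM. *Mmp14*, a membrane metalloproteinase, was at 130.1 and 53.01 TPM in the controls and at 194 and 345 TPM in the clones (1.62 ± 0.47 SE, adjusted p = 0.185). *Ezr*, which links membrane proteins to actin, was at 151 and 199.9 TPM against 354 and 448 TPM (1.19 ± 0.31 SE, adjusted p = 0.158), and the tetraspanin *Cd9* at 174 and 320 TPM against 360 and 486 TPM (0.83 ± 0.36 SE, adjusted p = 0.332). The sheddases *Adam10* and *Adam17*, proteases that release many surface proteins, had log2 differences of 0.84 ± 0.41 and 0.35 ± 0.42 (SE; limma adjusted p = 0.379 and 0.74).

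**Figure D5:**
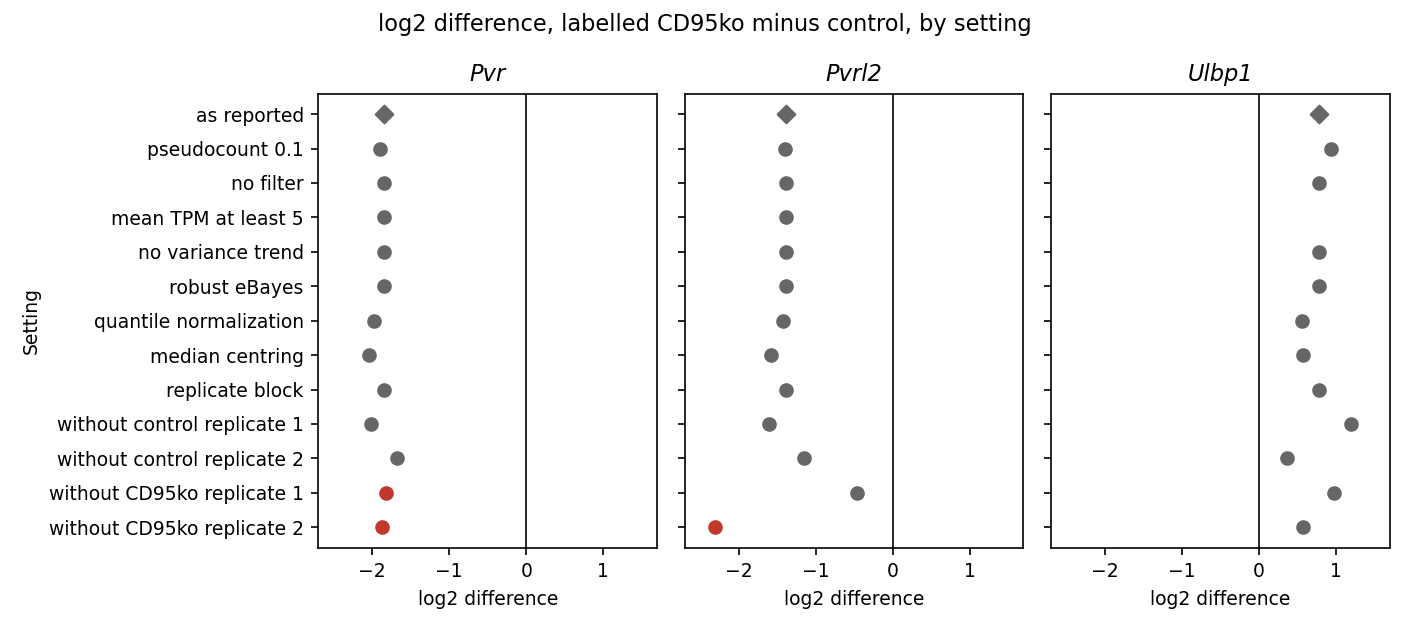
log2 difference (labelled CD95ko minus control) of *Pvr*, *Pvrl2* and *Ulbp1* under each setting on the vertical axis, with the reported value as a diamond and values past an adjusted p of 0.05 in red. *Pvr* stays between -2.05 and -1.67, whereas *Pvrl2* moves from -0.46 to -2.30 with the clone left out.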

How the data were processed

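Each library was deposited by the authors as a table of TPM values, one per gene symbol, per the file headers. STAR 2.6.0, RSEM 1.3.0 and the build mm10 are named in the submitters' processing notes; options and annotation are not given in the sources used here. Columns sum to between 999999.67 and 1000000.1, and since TPM keeps no depth, counting errors and limits of detection are not given. Genes that reached 1 TPM in 2 or more libraries (11167) were tested on log2(TPM + 1), which understates the change of low genes, with limma 3.58.1 in R 4.3.3 (eBayes with trend, no covariate, two-sided, Benjamini-Hochberg over all tested genes, threshold 0.05). The procedure was run on simulated data drawn with the variances of the same fit. Such data hold no differences between lines or clones, so the run cannot show how the p-values behave with them. An exact permutation test of 2 against 2 libraries cannot go below p = 0.333. Per the labels, the libraries of a group come from different lines or clones with 1 library each. The p-values measure only the spread between such libraries, and eBayes draws each gene's variance toward that of other genes of like level. For *Icam1* the SE was 0.632, although its controls differed by 0.041 and its clones by 0 on the log2 scale.

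The 9 genes and all lists were chosen with earlier results of these data known. Genes named from the wider lists had the smallest unadjusted p under 0.05 with non-overlapping groups (up to 5 per list) or a mean of at least 50 TPM. *Raet1a* to *Raet1c*, *Adam10*, *Adam17*, *Itgb2*, *Rel*, *Ikbkb*, *Ikbkg*, *Chuk*, *Csf1r*, *Cd68*, *Eomes* and *Postn* were added after their values were seen. So were the genes near *Pvr* and the list genes named at 0. *Nectin2* and 4 other list genes were found under older symbols in RefSeq. The alternatives were a pseudocount of 0.1, no filter, a mean of at least 5 TPM, eBayes without trend, robust eBayes, quantile normalization, median centring, the replicate number as a block, and leaving out each library.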

Additional observations from a re-analysis of the deposited data

How the results depend on the processing

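The count of all genes past an adjusted limma p of 0.05, 6 as reported, was 0 in 5 settings, namely median centring, quantile normalization, eBayes with no trend, no filter and a pseudocount of 0.1 (genes whose unadjusted p lay under 0.05 numbered, in this order, 1848, 1862, 1531, 1636 and 1553, and 1667 as reported). It was 55 with a mean of at least 5 TPM and 52 with robust eBayes, and from 0 to 1034 with 1 library left out. The cause was not tested. None of the 6 tested ligand genes passed in any setting with 4 libraries, and none did with a control left out. *Pvr*, *Icam1* and *Clec2d* passed without the library labelled CD95ko 1. Without the library labelled CD95ko 2, *Pvr*, *Icam1* and *Pvrl2* passed. *Icam1* was at 0 in both clones and *Clec2d* in the library labelled CD95ko 2, so their calls set the controls against values of 0. The number of ligand genes under the controls was 3 to 5 with 1 library left out, where 22.1 to 36.3% of all tested genes were. That share was 18.3% with 4 libraries, since a group left with a single value overlaps less easily. In the wider ligand list, the 3 genes at an unadjusted p under 0.05 became 1 without the variance trend, and 1 to 7 with 1 library left out.

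The replicate numbers name different lines and clones, and the titles give no pairing. Over the tested genes the deviations of same-numbered libraries correlated at -0.081. Being a single correlation over genes, it cannot show whether same-numbered libraries shared a batch, which was not tested. With the replicate block 2 genes passed, none of them a ligand gene, and *Pvr* had an adjusted p of 0.166. The median ligand difference ranged from -1.57 to -1.03 with 1 library left out. Over settings with 4 libraries, the 53 values of single genes (6 ligand genes and *Fas*) kept their direction and side of the threshold, with adjusted p from 0.0744 to 0.211 for *Pvr*, 0.231 to 0.413 for *Pvrl2* and 0.0896 to 0.222 for *Icam1*. With 1 library left out, 2 of 28 reversed: *H60b*, which ranged from -1.32 to 0.94 and was positive without the library labelled CD95ko 2, and *Fas*, which ranged from -1.42 to 0.17 and was positive without the library labelled CD95ko 1. *Icam1*, *Ulbp1* and *H60b* fall under the filter on a mean of 5 TPM and have no value there. No count model was run on TPM values, and without depth a gene at 0 cannot be told from one too weak to be sampled.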

Other observations

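The genes of the receptors that NK cells use to read these ligands were at 0 with few exceptions. Of 16 listed receptor genes, 13 were at 0 in all 4 libraries, among them *Cd226* (DNAM-1), *Klrk1* (NKG2D), *Itgal* (the LFA-1 alpha chain), *Cd96* and *Crtam*. *Tigit*, which encodes the inhibitory receptor for CD155 and CD112, was at 61.5 and 79.8 TPM in the controls and at 118 and 104 TPM in the libraries labelled CD95ko (log2 difference 0.66 ± 0.33 SE, limma adjusted p = 0.387). Both clones lay above both controls. The annotation behind these values is not given in the sources used here, so whether the reads come from *Tigit* was not checked. Of the 25-nucleotide stretches of its transcript (GENCODE M21, 919 nucleotides), 7.8% occur in other genes, 805 genes in all. *Itgb2*, the LFA-1 beta chain, was at 18.0 and 6.44 TPM in the controls and at 12.2 and 68.5 TPM in the libraries labelled CD95ko.

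*Clec2f*, a neighbouring paralog of *Clec2d* that GENCODE M21 lists as a transcribed unprocessed pseudogene, was at 38.1 and 101 TPM in the controls and at 92.0 and 74.5 TPM in the libraries labelled CD95ko. It stood above *Clec2d* in every library, with 9.9% of its stretches in other genes.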
